A study of Mus musculus with 3 samples.

Results

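The dividing transit-amplifying cells of the small intestinal crypt were taken as single-cell barcodes that held proliferation transcripts and lacked markers of stem cells and injury-associated cells. A barcode counted when it passed the quality limits (at least 500 genes, at least 1000 unique molecular identifiers or UMIs, at most 20% mitochondrial UMIs), had at least 2 Epcam UMIs and no Ptprc UMI, no Lgr5 UMI, fewer than 5 Clu UMIs, and at least 2 UMIs each of Mki67 and Top2a. This gate held 232 of 14387 barcodes, namely 18 in the control library, 79 in the KO library and 135 in the rescue library, against 515, 1504 and 726 epithelial barcodes passing the same quality limits. The cells were chosen by their Mki67, Top2a, Epcam, Ptprc, Lgr5 and Clu UMIs in these same libraries, so the levels of these genes are no result and all values here are descriptions.

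The study profiled small intestinal crypt cells of adult C57BL/6 mice aged 2 to 3 months by droplet single-cell RNA sequencing (10x Chromium 3′, version 3), with 1 library for each of 3 genotypes. Every mouse carried Olfm4-IRES-eGFPCreERT2, a hormone-inducible Cre recombinase made from the Olfm4 locus, which is active in crypt base stem cells. The control was CDC42+/flox, the KO was CDC42flox/flox, and the rescue was CDC42flox/flox; Yapflox/flox; Tazflox/+, which adds 2 floxed Yap1 alleles and 1 floxed Wwtr1 allele to those of the KO. The series names a question of apical-basal polarity, the passage from stem cell to transit-amplifying cell, and YAP, EGF and mTOR signalling. Crypts came from enzyme digestion for 1 hour, 4000 to 5000 cells were harvested per library, and nothing in the labels says how many animals a library held. With 1 library per genotype there is no replicate check: differences below compare libraries, intervals cover counting error only, and no test of the genotypes was possible.

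Transit-amplifying cells are the fast-dividing daughters of Lgr5+ stem cells. They occupy the crypt wall above the stem cell zone and divide a few times before they become absorptive or secretory cells. Mki67 encodes the Ki-67 protein that coats mitotic chromosomes, and Top2a encodes the topoisomerase that untangles replicated DNA; both accumulate from S phase to mitosis. CDC42 is a small GTPase that organises apical-basal polarity and spindle orientation, while YAP (Yap1) and TAZ (Wwtr1) are transcriptional co-activators restrained by the Hippo kinases.

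Promoters are shown here for genes on which the description of these cells turns. Genes of G2 and mitosis are commonly regulated through a CHR element (letters TTTGAA) and CCAAT boxes (letters CCAAT), and MHC class II promoters also carry a CCAAT-type box. RefSeq promoters of build GRCm38.p6, each running from 250 bases before to 50 bases after a gene's start, were searched for both on either strand. Capitals mark these letters or their reverse complement. Top2a (chr11:99024140-99024439, minus strand) was a gate gene, Cdk1 (chr10:69352863-69353162, minus strand) encodes the mitotic kinase, Cdc20 (chr4:118437294-118437593, minus strand) encodes an activator of the anaphase-promoting complex and was 2.45-fold lower in KO than control, and Plk1 (chr7:122159185-122159484, plus strand) encodes a mitotic kinase that differed little.
Top2a: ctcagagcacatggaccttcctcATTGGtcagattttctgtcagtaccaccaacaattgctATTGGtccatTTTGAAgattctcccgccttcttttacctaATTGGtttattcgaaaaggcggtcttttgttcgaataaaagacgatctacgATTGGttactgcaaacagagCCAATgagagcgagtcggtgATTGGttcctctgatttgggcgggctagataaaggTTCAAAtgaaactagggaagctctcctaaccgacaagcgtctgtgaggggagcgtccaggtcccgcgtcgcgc
Cdk1: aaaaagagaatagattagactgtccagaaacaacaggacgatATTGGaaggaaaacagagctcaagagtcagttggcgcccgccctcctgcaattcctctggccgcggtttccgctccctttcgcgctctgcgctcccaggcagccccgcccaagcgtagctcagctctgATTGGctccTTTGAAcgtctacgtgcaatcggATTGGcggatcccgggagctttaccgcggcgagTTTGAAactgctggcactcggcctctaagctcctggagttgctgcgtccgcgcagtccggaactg
Cdc20: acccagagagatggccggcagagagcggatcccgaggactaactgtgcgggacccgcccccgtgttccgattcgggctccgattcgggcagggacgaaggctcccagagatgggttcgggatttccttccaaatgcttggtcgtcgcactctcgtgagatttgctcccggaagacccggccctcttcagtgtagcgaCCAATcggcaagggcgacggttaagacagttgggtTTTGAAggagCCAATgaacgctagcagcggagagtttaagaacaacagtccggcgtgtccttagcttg
Plk1: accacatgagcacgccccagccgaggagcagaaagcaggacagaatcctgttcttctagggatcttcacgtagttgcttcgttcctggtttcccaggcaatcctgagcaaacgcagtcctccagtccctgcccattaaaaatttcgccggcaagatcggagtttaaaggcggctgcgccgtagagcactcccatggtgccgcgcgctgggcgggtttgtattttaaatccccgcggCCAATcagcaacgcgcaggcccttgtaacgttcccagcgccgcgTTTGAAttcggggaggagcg
The H2-Aa (chr17:34287774-34288073, minus strand) and H2-Eb1 (chr17:34305617-34305916, plus strand) promoters are shown because both genes, which encode MHC class II chains, were at high levels in the rescue cells and nearly missing from the others.
H2-Aa: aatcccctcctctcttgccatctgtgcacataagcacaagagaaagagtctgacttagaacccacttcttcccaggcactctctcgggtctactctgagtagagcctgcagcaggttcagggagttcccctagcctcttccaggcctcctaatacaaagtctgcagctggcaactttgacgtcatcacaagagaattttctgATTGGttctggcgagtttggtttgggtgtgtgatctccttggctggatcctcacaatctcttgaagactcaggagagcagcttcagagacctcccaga
H2-Eb1: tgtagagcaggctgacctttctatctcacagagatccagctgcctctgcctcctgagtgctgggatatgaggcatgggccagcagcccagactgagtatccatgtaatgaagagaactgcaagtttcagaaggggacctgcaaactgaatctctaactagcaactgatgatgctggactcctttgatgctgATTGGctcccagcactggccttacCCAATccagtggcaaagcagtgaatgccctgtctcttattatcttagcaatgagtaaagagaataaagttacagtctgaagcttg

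The Top2a window held 2 CHR matches and 6 CCAAT matches, the Cdk1 window 2 and 3, the Cdc20 window 1 and 2, and the Plk1 window 1 and 1. H2-Aa held 1 CCAAT match and H2-Eb1 held 2, with no CHR match in either. Of all 32851 promoters, 17.9% held the CHR letters, 37.4% held CCAAT and 6.95% held both. Among 23 promoters of 22 matched G2/M regulators (of 26 listed), 13 (56.5%) held the CHR letters and 12 (52.2%) held both. The spindle and cytokinesis genes (30 promoters of 27 of 33 genes) held CHR letters in 23 (76.7%), whereas the S phase genes (30 promoters of 26 of 35 genes) held them in 3 (10.0%). The MHC class II list (8 promoters of 7 of 10 genes) held CCAAT in 7 (87.5%). A TEAD motif (letters GGAATG), the site of the partners of YAP, was in 14.7% of all promoters, in 9 of 23 (39.1%) promoters of YAP and TAZ target genes and in 5 of 28 (17.9%) promoters of regenerative genes. A match describes letters and is not evidence of binding.

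Cells of the gate were deep. Median depth was 47507.5, 64323 and 69415 UMIs per cell in control, KO and rescue, median gene number was 6535, 6984 and 6996, and the cells summed to 882946, 5323694 and 11408974 UMIs. The control was therefore the least precise of the 3, and 1 cell in 18 carried more weight there. The mitochondrial limit removed unequal numbers of dividing cells: 51 control barcodes (73.9% of 69), 2 KO barcodes (2.47% of 81) and 24 rescue barcodes (15.1% of 159) met every other condition of the gate. Libraries shared few barcode sequences (11 between control and KO, 3 between control and rescue, 6 between KO and rescue), and no gated barcode was shared. A doublet score marked 0, 3 and 4 of the gated cells.

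The threshold ran through a continuum. The lowest of the Mki67 and Top2a counts lay at the threshold itself in 2, 15 and 4 cells of control, KO and rescue, and 11, 53 and 41 further barcodes missed the gate by a count of 1 in either gene. Within the gate the median was 14, 14 and 17 Mki67 UMIs and 7, 13 and 17 Top2a UMIs. The cells differed from the label in 2 respects. First, 4 of 18 control cells (22.2%, exact 95% binomial interval 6.41 to 47.6), 37 of 79 KO cells (46.8%, 35.5 to 58.4) and 49 of 135 rescue cells (36.3%, 28.2 to 45.0) held more UMIs of the 35 S phase genes than of the 26 G2/M regulators. In 0, 11 and 9 cells these sums lay within 10% of their total of each other, and the lists differ in size, so no phase was assigned to a cell. Second, 3, 4 and 10 cells held 1% or more of their UMIs in Paneth, goblet, enteroendocrine or tuft cell markers, up to 13.4% in control cells, 10.2% in KO cells and 6.2% in rescue cells. They are called G2/M-gated cells here.

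Markers of cells outside the epithelium were scarce. The 12 stromal and endothelial markers summed to 0, 0.939 and 0.701 CPM (the UMIs of a gene or list, scaled to the same total in every library), with 12, 11 and 10 of them at 0. The 14 T cell markers summed to 54.4, 6.76 and 45.5 CPM, against 48306, 15004 and 43859 CPM in immune barcodes (at least 1 Ptprc UMI and no Epcam UMI) of the same libraries. The 11 macrophage markers summed to 17.0, 21.6 and 25.2 CPM, against 2677, 25015 and 4199 CPM in immune barcodes. Free RNA can add UMIs of other cells to a droplet, so levels in immune barcodes are given beside genes of other cell types below. The part of free RNA in the values was not tested.

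The targeted genes come first. Cdc42 stood at 277 CPM (exact 95% Poisson interval 244 to 314) in the control, 305 CPM (290 to 320) in the KO and 347 CPM (336 to 358) in the rescue, with a UMI in every gated cell. Yap1 was at 37.4, 31.7 and 26.1 CPM, and Wwtr1 at 19.3, 13.3 and 3.16 CPM. The rescue value of Wwtr1 was 4.23-fold (2.79 to 6.50) below the KO. The libraries read 3′ ends, and the labels do not say which exons are floxed, so UMIs can come from outside a deleted part and these levels check neither deletion nor label.

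G2/M-gated cells made up 3.50% (18 of 515, exact 95% binomial interval 2.08 to 5.47) of epithelial barcodes in the control, 5.25% (79 of 1504, 4.18 to 6.50) in the KO and 18.6% (135 of 726, 15.8 to 21.6) in the rescue. The rescue share lay above both others by more than counting error, and the intervals of control and KO overlapped. Barcodes of at least 10000 UMIs were also thinned to 10000 UMIs before the gate, which equalises depth, and shallower barcodes were left out. The shares were then 1.41% (6 of 426), 3.01% (37 of 1230) and 11.5% (78 of 678), in the same order. With no mitochondrial limit they were 2.57% (69 of 2685), 2.74% (81 of 2951) and 11.2% (159 of 1423), so the rescue was again highest and control and KO were close. These are shares of what survived digestion and capture, and each rests on 1 library.

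**Figure D1:**
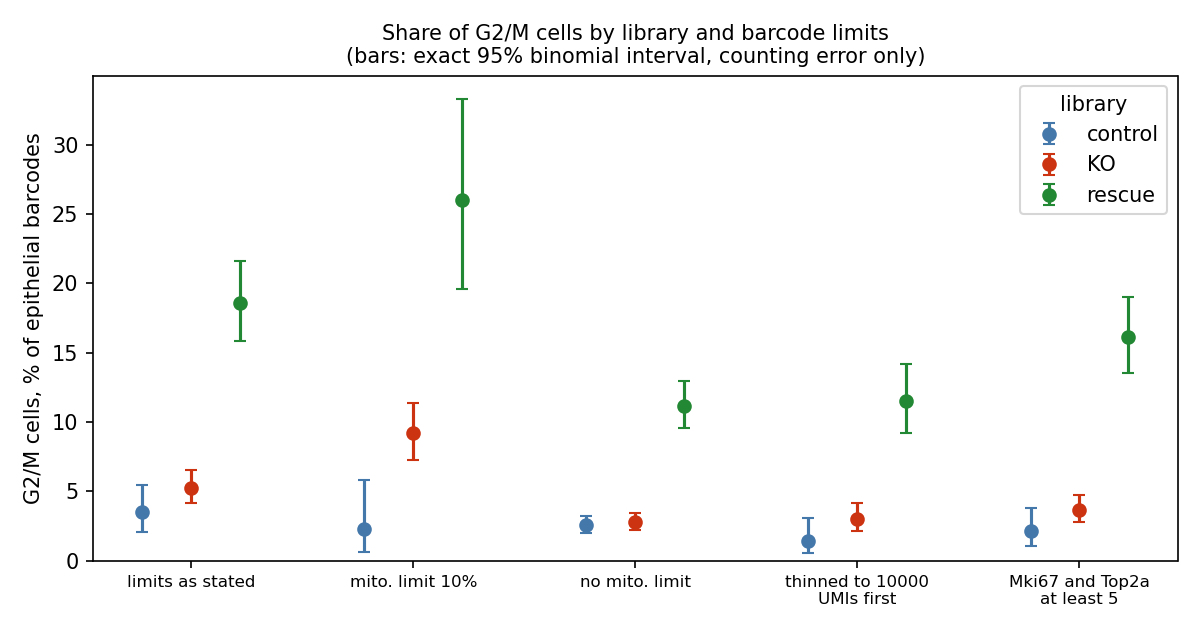
Share of epithelial barcodes in the G2/M gate, in percent, for the control, KO and rescue libraries under the stated gate and 4 other settings. Points are shares and bars are exact 95% binomial intervals, which cover counting error only. The rescue is highest under every setting drawn, from 11.2% with no mitochondrial limit to 26.0% with a limit of 10%.

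The gate excludes Lgr5+ and Clu-high cells, and the excluded dividing cells differed between libraries. Without those 2 limits there were 31, 94 and 176 dividing epithelial cells (6.02%, 6.25% and 24.2% of epithelial barcodes). Of these, 41.9% (24.5 to 60.9) held an Lgr5 UMI in the control, 5.32% (1.75 to 12.0) in the KO and 23.3% (17.3 to 30.2) in the rescue. With each cell thinned to 10000 UMIs, and shallower cells left out, an Lgr5 UMI was left in 3 of 31, 0 of 91 and 13 of 176. A count of 0 among 91 allows a share of cells with an Lgr5 UMI of up to 3.30% at a floor of 3 cells, and its exact upper limit is 3.97%. Olfm4, the more abundant stem cell marker whose locus drives Cre, was then found in 48.4% (30.2 to 66.9), 16.5% (9.53 to 25.7) and 33.5% (26.6 to 41.0) of dividing cells. At 5 or more UMIs Clu, a marker of revival stem cells that appear after injury, was found in 0 of 31, 10 of 94 (10.6%, 5.22 to 18.7) and 0 of 176 dividing cells. The Lgr5 and Clu shares are descriptions only, since the gate used both genes. For Olfm4, which the gate did not use, the intervals of control and KO after thinning did not overlap.

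Gene levels were then compared in sums over the gated cells of each library. A gene was called measured if either library of a comparison held 20 or more of its UMIs, and as higher or lower past a 2-fold ratio of (CPM + 1). Log2 ratios below are on that scale and understate low genes. The control cells held the fewest UMIs in sum, so 20 UMIs was a higher level there than in the KO or the rescue. Low genes were thus measured more readily when high in those libraries, which can favour higher counts against the control. Between KO and control 9448 genes were measured, of which 683 (7.23%) were at least 2-fold higher and 540 (5.72%) at least 2-fold lower in the KO. Between rescue and KO 10520 genes were measured, 470 (4.47%) higher and 465 (4.42%) lower in the rescue. Between rescue and control 10421 genes were measured, 480 (4.61%) higher and 546 (5.24%) lower in the rescue. These percentages are the background against which list counts are read. With no mitochondrial limit and scaling to non-mitochondrial UMIs, called the open mitochondrial setting below, the split between higher and lower moved: 495 and 999 for KO against control, 536 and 407 for rescue against KO, and 326 and 984 for rescue against control. The control cells admitted by that change number 51, more than the 18 in the gate.

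**Figure D2:**
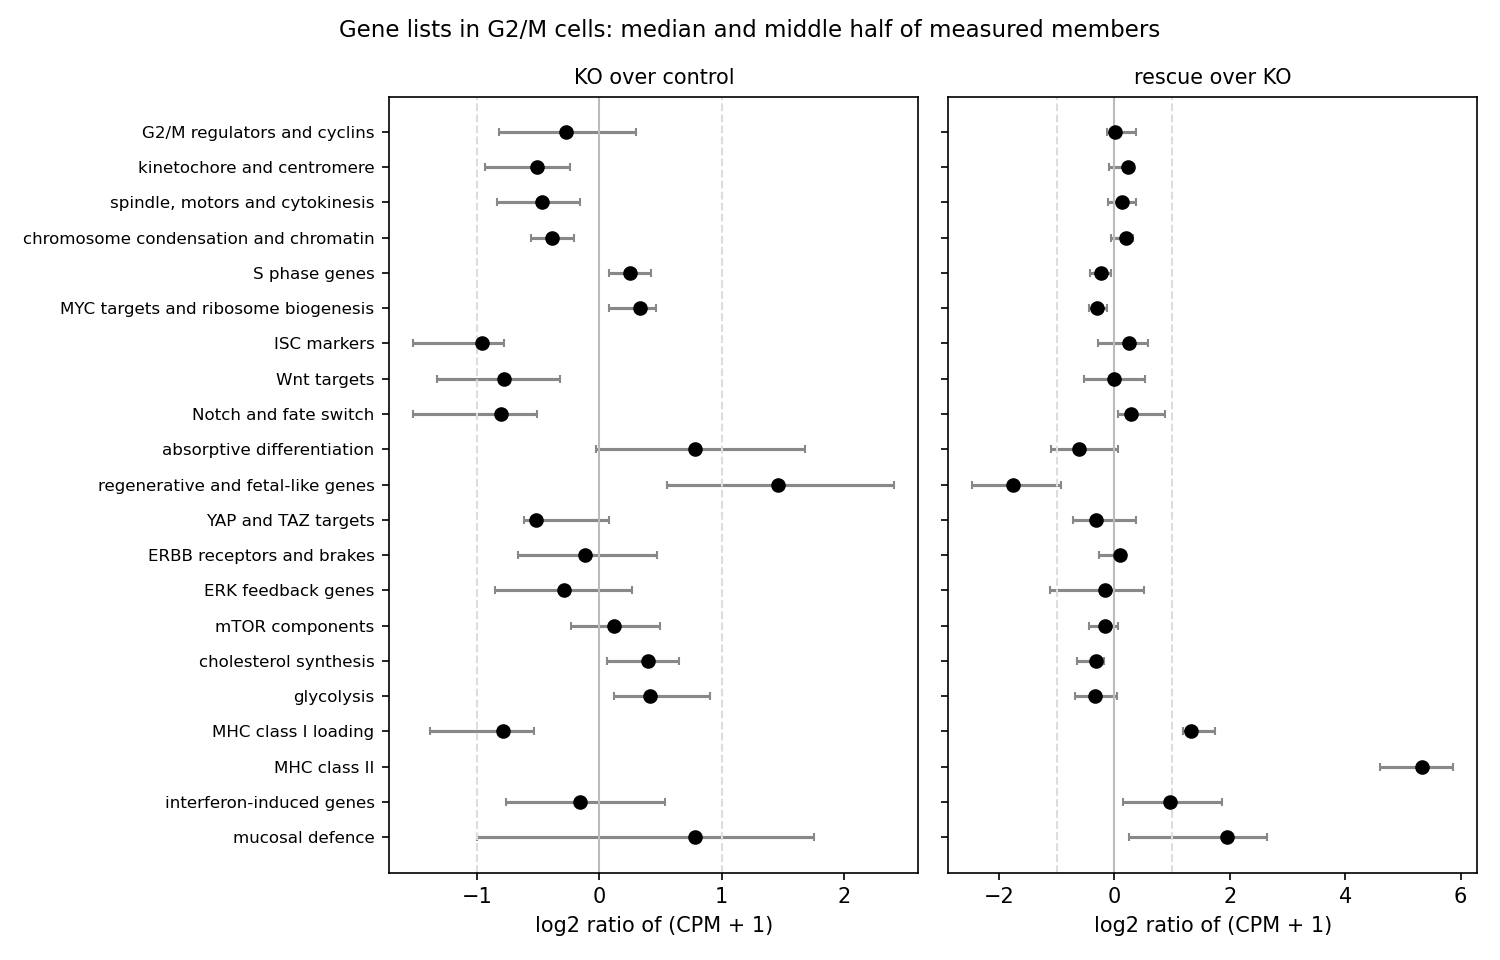
Median log2 ratio over the measured members of 21 gene lists in G2/M-gated cells, for KO over control and rescue over KO, with the middle 50% of members as bars. Of the lists drawn, the regenerative list lies furthest from 0 in KO over control, at 1.46, and MHC class II in rescue over KO, at 5.33. The regenerative value of 1.46 equals the log2 ratio of the gate gene Clu, whose level is no result.

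Transcripts of the mitotic machinery were found in all 3 libraries. The 26 G2/M regulators summed to 3077, 2210 and 2618 CPM in control, KO and rescue, and the median cell held 0.314%, 0.211% and 0.274% of its UMIs in them. Of these 26, 9 were above and 17 below the control in the KO, 1 past 2-fold each way, and the median log2 ratio was -0.27. That median was above 0 with a mitochondrial limit of 10% or with the Lgr5 and Clu limits lifted (0.15 at the highest).

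Cdc20, which activates the anaphase-promoting complex at the end of mitosis, was at 281 CPM (247 to 318) in the control, 115 CPM (106 to 124) in the KO and 149 CPM (142 to 156) in the rescue, 2.45-fold (2.10 to 2.84) lower in KO than control. Ccnb1 and Ccnb2 encode the B-type cyclins that drive entry into mitosis. Ccnb1 was at 145, 75.9 and 100 CPM and Ccnb2 at 187, 96.0 and 122 CPM. These cyclins were highest in the control and lowest in the KO, like Cdc20, although the log2 ratio of KO to control for Ccnb1 went from -0.92 to 0.22 with a mitochondrial limit of 10%. The kinase genes did not share that order: Cdk1 was at 111, 146 and 170 CPM, Plk1 at 74.7, 68.2 and 61.1 CPM. Mybl2, a transcription factor of the complex that acts at CHR promoters and that is itself made in S phase, was the 1 regulator past 2-fold higher in the KO, at 11.3, 28.2 and 14.5 CPM. Between rescue and KO the only regulator past 2-fold was Pttg1, which encodes securin, at 64.6, 36.4 and 81.9 CPM.

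Genes of the kinetochore, the structure that links chromosome and spindle, were below the control in the KO for 17 of 20 members (5 past 2-fold, median log2 ratio -0.51). Nuf2, part of the microtubule-binding NDC80 complex, stood at 39.6, 15.6 and 22.9 CPM, and Cenpa, the histone that marks centromeres, at 282, 134 and 186 CPM. In the opposite direction Zwint, a kinetochore scaffold, was at 36.2, 68.2 and 48.7 CPM. Spindle and cytokinesis genes were below the control for 30 of 33 members (6 past 2-fold, median -0.46). Kifc1, a minus-end motor that focuses spindle poles, was at 31.7, 9.58 and 17.6 CPM, and Aspm, a spindle pole protein, at 52.1, 23.5 and 27.2 CPM. With a mitochondrial limit of 10% the spindle median became 0.08. That limit left 4, 75 and 44 gated cells, and the cause of the shift was not tested. Between rescue and KO no kinetochore or spindle member passed 2-fold (medians 0.24 and 0.14).

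Spindle orientation genes had no common direction. Of 15 measured members (18 listed) 11 were above and 4 below the control in the KO, 1 past 2-fold each way, with a median of 0.23 that turned to -0.20 under the open mitochondrial setting. Gpsm2, the cortical adaptor that ties spindle to cell cortex, was at 82.7, 35.7 and 41.8 CPM. Ezr, which encodes ezrin, a linker of membrane and actin at the apical surface, was at 210, 453 and 178 CPM, high in the KO alone. Of the chromatin genes 19 of 21 were below the control in the KO (1 past 2-fold, median -0.39, or 0.06 with no mitochondrial limit). Hmgb2, an abundant chromatin protein of dividing cells, was at 1924, 949 and 1403 CPM.

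Most S phase genes were above the control in the KO. The 35 members summed to 1971 CPM (1879 to 2066), 2318 CPM (2277 to 2359) and 1964 CPM (1938 to 1990), and 27 of 35 were above the control in the KO (2 past 2-fold, median 0.25). The median cell held 0.110%, 0.236% and 0.149% of its UMIs in them. Cdt1 and Cdc6, which license replication origins, were at 11.3, 30.8 and 25.9 CPM and at 6.80, 18.2 and 9.29 CPM. Mcm3, a subunit of the replicative helicase, was at 58.9, 105 and 56.3 CPM, and Pcna, the sliding clamp of the polymerase, at 56.6, 81.9 and 85.3 CPM. In the rescue 30 of 35 members were below the KO, none past 2-fold. The median of KO over control was -0.37 with a mitochondrial limit of 10%.

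**Figure D3:**
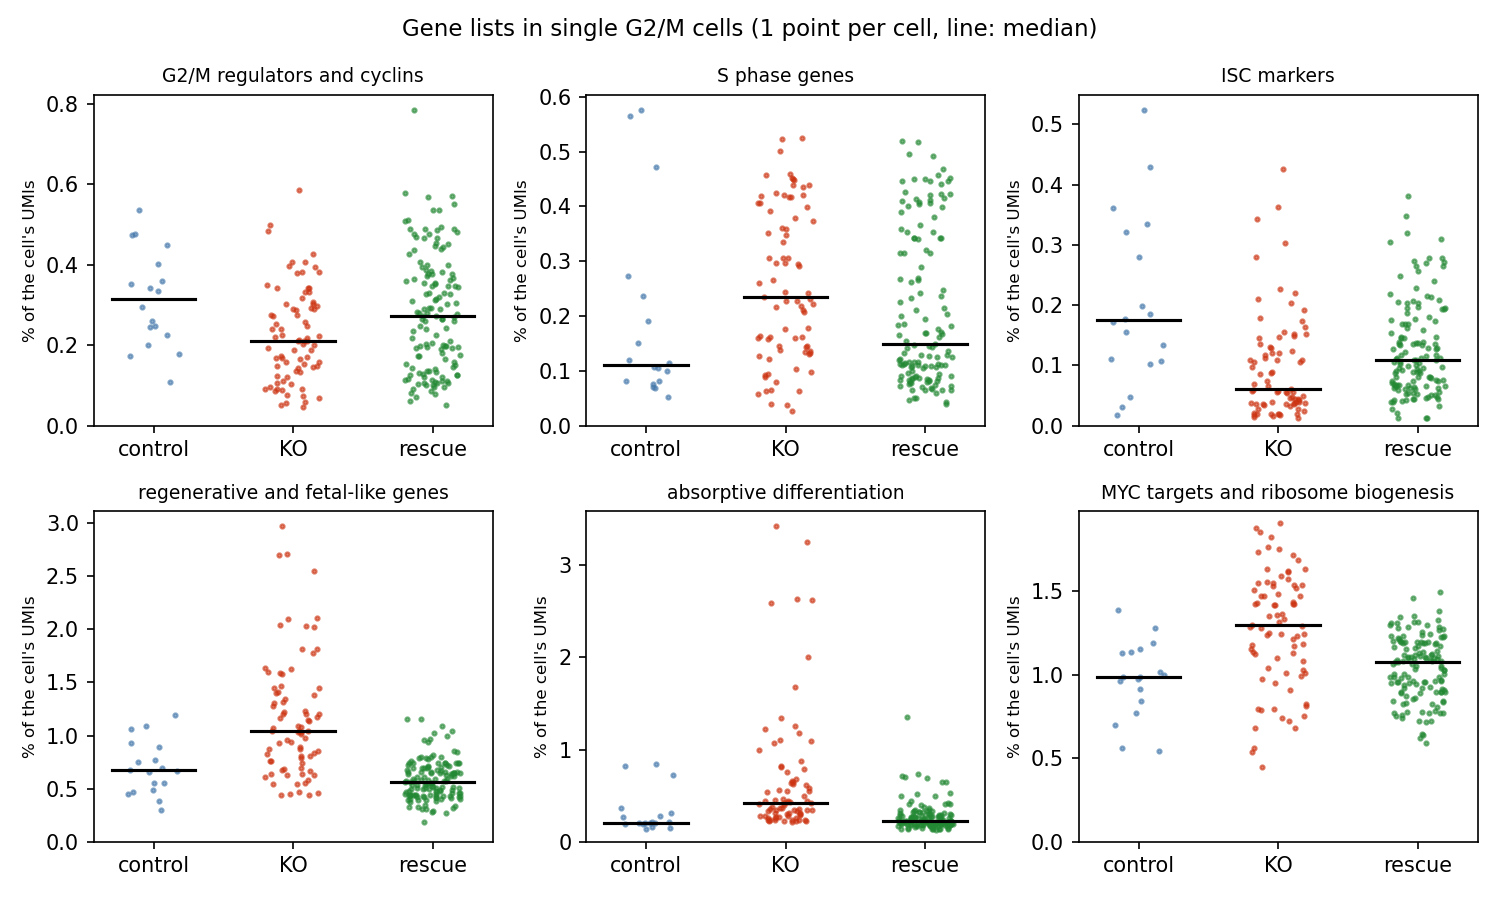
Percent of each G2/M-gated cell's UMIs in 6 gene lists, by library; each point is 1 cell and the line is the median. Median regenerative content is 1.05% in the KO against 0.675% and 0.566%, median ISC content is 0.0613% in the KO against 0.175% and 0.108%, and the cells of the libraries overlap in every panel.

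Of the G1 cyclins and inhibitors, 4 of 17 were past 2-fold lower in the KO and none higher (median -0.28, or 0.25 after thinning before the gate). Cdk6, a G1 kinase, was at 91.7, 24.2 and 40.9 CPM. Btg2, an antiproliferative gene that p53 also activates, was at 533, 221 and 282 CPM. In the rescue Ccnd2, which encodes cyclin D2, was at 404 CPM against 220 CPM in the KO and 383 CPM in the control. The p53 targets were split (9 of 16 above the control, 2 past 2-fold higher and 3 lower). Gdf15, a stress-induced cytokine, was at 14.7, 96.4 and 16.7 CPM, while Mdm2, the ligase that turns over p53, was at 49.8, 20.7 and 25.7 CPM.

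Stem cell transcripts were lower in the dividing cells of the KO, even though cells with an Lgr5 UMI had been removed from every library. ISC markers summed to 2095 CPM (2001 to 2193) in the control, 864 CPM (839 to 889) in the KO and 1256 CPM (1235 to 1276) in the rescue. Of 21 measured markers (24 listed) 19 were below the control in the KO and 10 past 2-fold, none was past 2-fold higher, and the median of -0.96 stayed between -1.76 and -0.74 over 16 other settings. In the rescue 14 of 22 were above the KO, with 2 past 2-fold each way (median 0.25), and 20 of 22 were below the control (12 past 2-fold, median -1.04). The rescue thus lay nearer the KO than the control by this list's counts. Depth and the share of dividing cells that the Lgr5 limit removed differed between the libraries, and their part in these values was not tested.

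Olfm4 was at 64.6 CPM (48.9 to 83.6) in the control, 17.1 CPM (13.8 to 21.0) in the KO and 29.3 CPM (26.2 to 32.6) in the rescue, with a UMI in 11 of 18, 24 of 79 and 62 of 135 cells. Ascl2, the Wnt-dependent master regulator of stem cell identity, was at 45.3, 10.7 and 9.03 CPM. It was as low in the rescue as in the KO, where the intervals overlapped (7.37 to 10.9 and 8.11 to 13.9). Its ratio of KO to control changed sign after thinning before the gate, when the control held 6 cells. Clca3b, a calcium-activated chloride channel accessory protein of crypt cells, was at 498, 98.8 and 433 CPM, low in the KO alone. Igfbp4 was at 53.2, 60.3 and 14.3 CPM and Cd44, an adhesion receptor that is also a Wnt target, at 41.9, 76.3 and 31.7 CPM; neither was lower in the KO.

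Wnt targets went the same way as the stem cell list. The lists share members, such as Ascl2, Axin2, Ephb3, Rnf43 and Cd44, and are not independent. Of 15 measured members (20 listed) 13 were below the control in the KO and 5 past 2-fold (median -0.78, though 0.66 after thinning before the gate). Axin2, the feedback inhibitor read as a general Wnt reporter, was at 57.8, 20.5 and 28.8 CPM. Between rescue and KO the median was 0.00, with 1 member past 2-fold each way. Myc, itself a Wnt target, was at 40.8, 16.3 and 22.1 CPM, 2.49-fold lower in KO than control. Its targets did not follow it. Of 28 MYC target and ribosome biogenesis genes, 24 were above the control in the KO, with 1 past 2-fold each way (Myc itself the lower 1), and the median of 0.33 stayed between 0.22 and 0.75 over 16 other settings.

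Nop16, a nucleolar assembly factor, was at 35.1, 71.4 and 42.2 CPM, Srm, the spermidine synthase, at 43.0, 85.1 and 68.7 CPM, and Rrp12, a ribosome export factor, at 10.2, 20.9 and 14.4 CPM. All 3 were highest in the KO. In the rescue 24 of 28 members were below the KO, none past 2-fold (median -0.31). The whole list summed to 9713, 12249 and 10334 CPM, and the median cell held 0.983%, 1.29% and 1.07% of its UMIs in it.

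Notch and fate-switch genes were below the control in the KO for 12 of 13 measured members (24 listed), 6 past 2-fold (median -0.80). Much of this came from few cells. Atoh1, the switch to secretory fate, was at 34.0, 6.76 and 9.82 CPM with a UMI in 3, 8 and 11 cells, and 60% of the control UMIs were in 1 cell. Dll1, the Notch ligand of secretory precursors, was at 29.4, 5.82 and 14.6 CPM, with 53.8% of control UMIs in 1 cell. Without the cells at 1% or more secretory markers Atoh1 was at 0, 0.784 and 1.85 CPM, and 2 of 11 measured members were past 2-fold lower in the KO (median -0.42). Atoh1 was itself among the markers that chose those cells. Hes1, the main Notch target that holds cells in the absorptive path, was at 111, 87.5 and 109 CPM. Its mean differed little between libraries.

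Regenerative and fetal-like genes were higher in the KO cells than in both other libraries. These genes are switched on in crypt epithelium after injury and in the fetal gut. They summed to 6953 CPM (6780 to 7129) in the control, 12566 CPM (12471 to 12661) in the KO and 5941 CPM (5896 to 5986) in the rescue. Of 25 measured members (33 listed) 21 were above the control in the KO, 14 past 2-fold and none past 2-fold lower, against 12 higher and 3 lower under the open mitochondrial setting. Of the 25, 4 had no UMI in the control and were measured through the KO alone, so these counts lean towards the KO. The median of 1.46 was 1.31 with members at 0 in the control set to their bound, and ran from 0.79 to 2.34 over 16 other settings. The 1.46 equals the log2 ratio of Clu, a gate gene whose level is no result. The median and counts were not recomputed without Clu. In the rescue 25 of 26 were below the KO and 19 past 2-fold lower (median -1.75, -2.18 to -1.52). Against the control the rescue had 10 members above and 10 below (median -0.05, or -0.74 under the open mitochondrial setting).

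S100a6, a calcium-binding protein of regenerating epithelium, was at 19.3 CPM (11.2 to 30.8) in the control, 1336 CPM (1306 to 1368) in the KO and 42.5 CPM (38.8 to 46.5) in the rescue. All 79 KO cells held a UMI, against 9 of 18 control and 78 of 135 rescue cells. The KO was 69.4-fold (43.3 to 119) above the control and the rescue 31.4-fold (28.7 to 34.5) below the KO. At 2000 UMIs per cell 79.7% of KO cells held a UMI, against 59.3% of KO immune barcodes, which hold 1202 CPM and whose own cells can express the gene; KO epithelial cells without Mki67 or Top2a UMIs held 5665 CPM. The level in dividing KO cells was thus close to that of immune barcodes and below that of the non-dividing cells.

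The annexins named here were also highest in the KO. Anxa3 was at 4.53, 84.7 and 2.63 CPM, beside 343 CPM in KO immune barcodes. Anxa2 was at 157, 778 and 225 CPM. Anxa1 and Anxa10 had no UMI in the control, 36.6 and 67.4 CPM in the KO and 0.175 CPM each in the rescue, at least 10.8-fold and at least 19.8-fold above the control at a floor of 3 UMIs over the group. Anxa10, which is also a gastric-type gene, was found in 15.2% of KO cells at 2000 UMIs and in 12.7% of KO immune barcodes. Anxa1 was found in 10.1% and 16.1%. At 2000 UMIs the shares in dividing cells were thus close to or below those of immune barcodes, and they are not read as a share of expressing cells. Without thinning, Anxa10 was found in 72.2% of KO cells and 25.6% of KO immune barcodes, and Anxa1 in 53.2% and 25.6%. Median depths were 64323 and 4885 UMIs, and thinning does not equalise free RNA between such barcodes. The part of free RNA in either comparison was not tested. Keratin genes moved less: Krt19 was at 1356, 2624 and 1599 CPM.

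Members below the control in the KO included Cldn4, a tight junction claudin, at 196, 115 and 27.8 CPM, Phlda1 at 297, 186 and 80.5 CPM, and F3, the coagulation initiator tissue factor that YAP can also induce, at 41.9, 28.4 and 15.3 CPM. All 3 were lowest in the rescue. The wider list of 28 YAP and TAZ targets did not share the pattern of the regenerative list. Only 11 were measured, 8 of them below the control in the KO (1 past 2-fold, median -0.52). The summed level was 413, 229 and 218 CPM. Cyr61, a classic YAP target, was at 179, 45.6 and 45.2 CPM. Between rescue and KO the median was -0.31 with 1 member past 2-fold each way, and its sign depended on the setting.

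**Figure D4:**
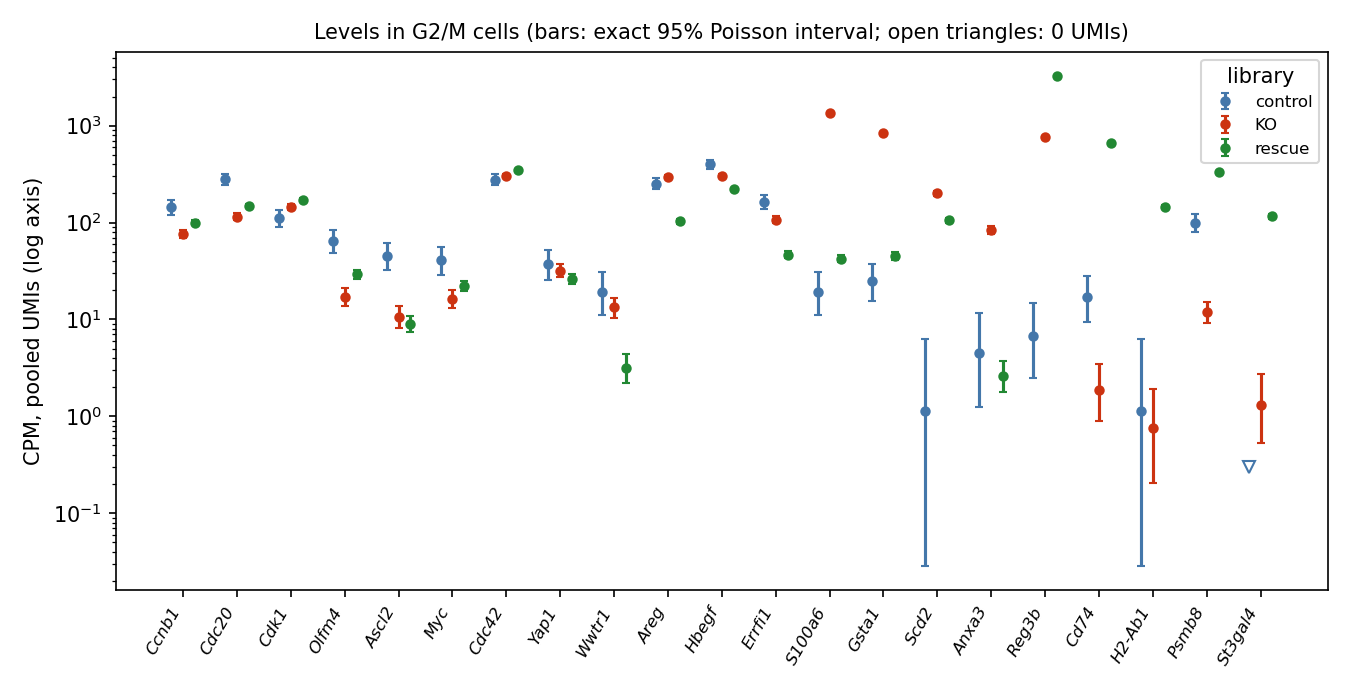
Level of 21 genes in G2/M-gated cells of the control, KO and rescue libraries, in CPM on a log axis, with exact 95% Poisson intervals; an open triangle marks 0 UMIs. S100a6 is high in the KO alone, the MHC class II gene H2-Ab1 and Cd74 are high in the rescue alone, and Cdc20 lies between 115 and 281 CPM throughout.

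Absorptive genes were higher in the KO cells, at low levels compared with differentiated cells. The 31 genes summed to 3161, 7541 and 2943 CPM, against 51836, 85258 and 40720 CPM in non-dividing epithelial cells. Of 27 measured members 19 were above the control in the KO, 12 past 2-fold higher and 1 lower (median 0.78, from 0.17 to 1.46 over 16 other settings). Under the open mitochondrial setting 7 were higher and 3 lower (median 0.28). In the rescue 8 of 28 were past 2-fold below the KO and 1 above (median -0.62), and the rescue median against the control was 0.01.

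Rbp2, the cellular retinol carrier of enterocytes, was at 315, 1976 and 319 CPM, and KO immune barcodes held 757 CPM. Fabp1, the fatty acid carrier, was at 437, 1396 and 182 CPM, with 355 CPM in KO immune barcodes. Apoa1 and Apoa4, apolipoproteins of chylomicrons, were at 71.4, 479 and 50.1 CPM and at 40.8, 319 and 23.7 CPM, beside 373 and 305 CPM in KO immune barcodes. In detection at 2000 UMIs Fabp1 was found in 62.0% of KO G2/M-gated cells and 56.8% of KO immune barcodes, and Apoa1 in 36.7% and 64.4%. The Apoa1 share at 2000 UMIs was below that of immune barcodes and is not read as a share of expressing cells, whereas the pooled Fabp1 level was above theirs. Without thinning, Apoa1 was found in 100% of KO G2/M-gated cells and 94.4% of KO immune barcodes, at unequal depth. Sis, which encodes the brush border sucrase-isomaltase, was at 73.6, 35.3 and 59.3 CPM and Anpep, a brush border peptidase, at 34.0, 17.1 and 54.3 CPM, both lowest in the KO. The absorptive genes were thus not of 1 direction.

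The remaining genes with the largest ratios of KO to control were Scd2, Gsta1, Gsta4, Capg, Tpm3-rs7, Gm766, Sprr2a3 and Reg3b. Scd2, a fatty acid desaturase, was at 1.13, 201 and 106 CPM, from 1 UMI in the control, with 74 of 79 KO cells and 118 of 135 rescue cells holding a UMI. It was high in KO and rescue, unlike the regenerative genes, and KO immune barcodes held 30.6 CPM. Gsta1 and Gsta4 encode glutathione transferases that detoxify electrophiles. Gsta1 was at 24.9, 832 and 45.1 CPM and Gsta4 at 11.3, 274 and 23.5 CPM, with 271 and 71.8 CPM in KO immune barcodes. Capg, an actin-capping protein, was at 9.06, 234 and 18.5 CPM, below the 531 CPM of KO immune barcodes. Tpm3-rs7, a tropomyosin-related retrogene whose reads can be shared with its parent gene, was at 1.13, 112 and 2.28 CPM. Gm766 was at 2.27, 170 and 59.6 CPM, with 72.8% of the rescue UMIs in 1 cell. Sprr2a3, a small proline-rich epithelial protein, had no UMI in the control and 135 and 2.80 CPM in KO and rescue (at least 39.7-fold above the control in the KO). Apart from Scd2, Gm766 and Reg3b these genes were high in the KO alone.

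Lowest against the control were Rnase1, Ceacam10, Ang4, Gm26917, Ccl9, Ly6e, Fam213a, Thbs1, Rragd and Camk2n1. Ceacam10, a cell adhesion molecule, was at 70.2, 1.31 and 38.5 CPM (53.4-fold, 24.4 to 138, lower in KO than control). Ly6e, an interferon-inducible surface protein, was at 143, 10.5 and 119 CPM, Camk2n1, an inhibitor of the kinase CaMKII, at 84.9, 7.14 and 33.4 CPM, and Rragd at 55.5, 4.32 and 64.3 CPM. These 4 were low in the KO and higher again in the rescue. Thbs1, an extracellular matrix protein, was at 120, 10.1 and 7.63 CPM, low in KO and rescue, with 44.3% of control UMIs in 1 cell. Gm26917, a long non-coding RNA locus, was at 2184, 156 and 253 CPM, and control immune barcodes held 3873 CPM. Rnase1, Ang4 and Ccl9 rested on 1 control cell, which held 59.0%, 83.1% and 64.7% of their control UMIs, and without the secretory-marked cells they were at 1.33, 8.004 and 0 CPM in the control. Ang4 and Ccl9 were among the markers that chose those cells. Fam213a, at 70.2, 5.45 and 5.43 CPM, was at 6.67 CPM in the control without those cells.

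EGF family ligands and ERBB receptors feed the ERK cascade that drives crypt proliferation. Of 9 ligand genes 4 were measured between KO and control. Areg, which encodes amphiregulin, was at 251, 293 and 103 CPM, close in control and KO and 2.84-fold (2.63 to 3.06) lower in the rescue than the KO. Its log2 ratio of KO to control, 0.22, became -0.61 under the open mitochondrial setting. Hbegf, heparin-binding EGF, was at 401, 304 and 220 CPM. Btc (betacellulin) was at 4.53, 13.5 and 3.51 CPM, Tgfa at 3.40, 11.6 and 8.15 CPM, and Ereg (epiregulin) at 0, 2.44 and 2.54 CPM. The ligand list summed to 666, 626 and 339 CPM, lowest in the rescue.

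No receptor or brake passed 2-fold between KO and control (12 measured, 5 above and 7 below, median -0.12), whereas 4 were past 2-fold lower under the open mitochondrial setting (median -0.55). Egfr was at 18.1, 9.20 and 11.8 CPM, Erbb2 at 11.3, 21.6 and 22 CPM and Erbb3 at 40.8, 47.5 and 50.9 CPM. Lrig1, which promotes receptor turnover and marks stem cells, was at 36.2, 18.4 and 19.98 CPM. Lrig2 was at 9.06, 4.51 and 4.91 CPM and Lrig3 at 19.3, 15.8 and 20.4 CPM. Errfi1, an inhibitor that binds EGFR and its relatives, was at 162, 107 and 46.7 CPM and was the 1 member past 2-fold lower in rescue than KO. Among the adaptors and phosphatases Cblb was at 3.40, 5.07 and 2.89 CPM, Ptpn1 at 30.6, 43.2 and 35.9 CPM, and Ptprj at 7.93, 14.1 and 10.6 CPM. Low counts limit these receptors: Egfr rested on 16 UMIs in the control, and its log2 ratio of KO to control went from -0.91 to 4.11 after thinning before the gate.

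ERK feedback genes, which rise when the cascade is active, were split in the KO (2 of 16 past 2-fold higher, 4 lower, median -0.28), with 8 lower under the open mitochondrial setting (median -0.67). Etv4, an ETS factor downstream of ERK, was at 2.27 CPM (0.274 to 8.18) in the control, 28.7 CPM (24.4 to 33.7) in the KO and 1.93 CPM (1.21 to 2.92) in the rescue, with a UMI in 2 of 18, 61 of 79 and 14 of 135 cells. It was 14.9-fold (9.50 to 24.5) lower in rescue than KO. Immune barcodes of all 3 libraries held no Etv4 UMI, and non-dividing KO cells held 1.33 CPM, so in the KO the transcript was found in dividing cells. Dusp4 and Dusp6, phosphatases that switch ERK off, were at 1.13, 17.1 and 5.08 CPM and at 12.5, 18.2 and 3.59 CPM. Egr1, an immediate early ERK target, was at 945, 363 and 562 CPM and Spry1 at 65.7, 25.2 and 15.8 CPM. The immediate early genes as a list were below the control (7 of 19 past 2-fold lower, 2 higher, median -0.54), with 11 lower under the open mitochondrial setting (median -1.19).

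Most mTOR components differed little. Of 25 measured members 15 were above the control in the KO, 3 past 2-fold higher and 2 lower (median 0.12). Rragd, the Rag GTPase that carries mTORC1 to the lysosome, was the clear exception at 55.5 CPM (41.1 to 73.4), 4.32 CPM (2.74 to 6.48) and 64.3 CPM (59.8 to 69.2), with a UMI in 14 of 18, 10 of 79 and 126 of 135 cells. Deptor, an mTOR inhibitor, was at 96.3, 31.9 and 39.9 CPM. Eif4ebp1, the translation repressor that mTORC1 switches off and ATF4 induces, was at 36.2, 125 and 51.5 CPM, with Mlst8 at 4.53, 15.8 and 10.1 CPM and Akt2 at 7.93, 21.6 and 15.3 CPM. ATF4 and mTORC1 targets were split (4 of 18 past 2-fold each way, or 3 higher and 7 lower of 19 under the open mitochondrial setting). Phgdh, which opens serine synthesis, was at 44.2, 102 and 45.9 CPM, and Vegfa at 21.5, 5.82 and 14.9 CPM.

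Of the 25 cholesterol synthesis genes 20 were above the control in the KO, 4 past 2-fold higher and none lower (median 0.39, though -0.12 after thinning before the gate). Fdps, which makes farnesyl pyrophosphate, was at 164, 368 and 232 CPM. In the rescue 23 of 25 were below the KO, 1 past 2-fold. Glycolysis genes were above the control for 12 of 16 members (3 past 2-fold, median 0.41, from 0.29 to 0.89 over 16 other settings). Aldoa, the aldolase, was at 210, 599 and 303 CPM and Pfkp, a phosphofructokinase, at 57.8, 137 and 104 CPM. Hk2, hexokinase 2, went the other way at 45.3, 30.2 and 67.0 CPM.

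Genes of the CDC42 and small GTPase network were above the control in the KO for 24 of 34 members, 5 past 2-fold higher and 1 lower (median 0.19). Rhoc, a small GTPase of actin contraction, was at 9.06, 86.6 and 8.24 CPM, with 353 CPM in KO immune barcodes, and Cdc42ep2, an effector that binds active CDC42, at 2.27, 16.7 and 5.70 CPM. In the rescue 29 of 35 were below the KO, 5 past 2-fold. Polarity and junction genes were even, with 15 above and 15 below the control (3 past 2-fold higher, 1 lower, median -0.01). Under the open mitochondrial setting 2 were past 2-fold higher and 6 lower (median -0.44). Cldn2, a pore-forming claudin of crypts, was at 43.0, 167 and 92.7 CPM, and Crb3, which recruits the apical Crumbs complex, at 58.9, 128 and 65.0 CPM, while Ocln, the junction protein occludin, was at 94.0, 43.0 and 60.4 CPM. Of the 15 measured Hippo pathway members, 11 were below the control and 1 past 2-fold, the kinase gene Stk3 at 24.9, 7.51 and 10.9 CPM.

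Antigen presentation genes were higher in the rescue cells than in both other libraries. All 7 measured MHC class II genes (10 listed) were past 2-fold above the KO (median 5.33, from 3.82 to 6.06 over 16 other settings) and past 2-fold above the control (median 5.20). The list summed to 26.0 CPM (16.5 to 39.1) in the control, 6.76 CPM (4.74 to 9.36) in the KO and 1080 CPM (1061 to 1100) in the rescue. Immune barcodes of these libraries held 372, 1245 and 1788 CPM, and non-dividing epithelial cells 97.1, 38.7 and 1655 CPM. High levels in the rescue were thus found in dividing and non-dividing epithelium alike. The part of free RNA in these levels was not tested.

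Cd74, the invariant chain that guides MHC class II through the cell, was at 17.0 CPM (9.51 to 28.0) in the control, 1.88 CPM (0.901 to 3.45) in the KO and 660 CPM (645 to 675) in the rescue, 351-fold (191 to 733) higher in rescue than KO. A UMI was present in 9 of 18, 7 of 79 and 133 of 135 cells. At 2000 UMIs per cell it was found in 11.1%, 1.27% and 65.2% of G2/M-gated cells, against 14.2% of rescue immune barcodes, whose median depth was 4804 UMIs. The cells of the rescue therefore exceeded the share in immune barcodes at equal depth. H2-Ab1 and H2-Aa, the chains of I-A, were at 1.13, 0.751 and 146 CPM and at 1.13, 0.939 and 78.6 CPM, and H2-Eb1 at 1.13, 1.88 and 115 CPM. H2-DMa and H2-DMb1, which load peptides, were at 44.4 and 33.4 CPM in the rescue and at no more than 4.53 CPM elsewhere. Ciita, the master activator of the class, was seen only in the rescue, at 3.51 CPM.

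Class I genes showed the same order with smaller ratios, the KO lowest and the rescue highest. All 16 measured members were above the KO in the rescue, 13 past 2-fold (median 1.33, from 1.25 to 1.44 over 16 other settings), and 12 of 14 were below the control in the KO, 5 past 2-fold (median -0.79). Psmb8, an interferon-induced subunit of the immunoproteasome, was at 99.7 CPM (79.9 to 123), 11.8 CPM (9.09 to 15.1) and 331 CPM (320 to 342). Psmb9, its partner subunit, was at 98.5, 18.2 and 174 CPM and H2-T3, a non-classical class I gene, at 43.0, 6.01 and 50.4 CPM. The classical genes differed least: H2-K1 was at 253, 253 and 393 CPM and H2-D1 at 193, 272 and 342 CPM. Near-identical class I genes can share reads, so the split among them is uncertain.

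Interferon-induced genes were past 2-fold above the KO for 8 of 19 measured members in the rescue and below for 2 (median 0.97). Igtp and Irgm1, interferon-inducible GTPases, were at 1.13, 0.376 and 13.1 CPM and at 15.9, 4.32 and 22.9 CPM. Irf1, the transcription factor that interferon induces first, was at 64.6, 23.9 and 81.6 CPM. Cxcl10, a chemokine, was at 15.9, 21.98 and 6.05 CPM and Ifit1bl1 at 1.13, 17.1 and 3.86 CPM, so the list was not of 1 direction. Between KO and control it had no common direction (2 of 13 past 2-fold each way, median -0.15).

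Mucosal defence genes were past 2-fold above the KO for 11 of 16 members in the rescue and below for 3 (median 1.95). Reg3b, an antibacterial lectin, was at 6.80, 757 and 3225 CPM, with 42.1% of the KO UMIs in 1 cell. Reg3g, its relative, was at 56.6, 238 and 2590 CPM. At 2000 UMIs per cell Reg3b was found in 77.8% of rescue cells, against 49.4% of rescue immune barcodes. Pigr, which carries IgA across the epithelium, was at 2147, 636 and 2248 CPM, lowest in the KO. Tnfsf10, a death ligand, was at 30.6, 1.88 and 24.7 CPM, and Lcn2, an iron-sequestering defence protein, at 5.66, 0.751 and 18.1 CPM.

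Other genes with the largest ratios in the rescue included St3gal4, a sialyltransferase, at 0, 1.31 and 116 CPM, and Apol10a, an apolipoprotein L gene, at 19.3, 0.751 and 74.7 CPM. St3gal4 was at least 34.1-fold above the control, and non-dividing rescue cells held 513 CPM. The hormone genes Cck, Ghrl and Gcg were at 420, 157 and 122 CPM in the rescue, but 1 cell each held 52.6%, 63.8% and 85.0% of those UMIs. Lowest against the KO, besides S100a6, Anxa10, Anxa3, Gsta1, Sprr2a3 and Tpm3-rs7, were Gm8730, Hbb-bs, Hba-a1 and Reg4. Gm8730, a processed pseudogene, was at 1573, 1577 and 31.3 CPM. The rescue library was counted with another Cell Ranger version than the other 2. That version and the genotype cannot be told apart for this gene or for any other gene compared with the rescue. The globin genes Hbb-bs and Hba-a1 were at 428 and 55.8 CPM in the KO, where 1 cell held 98.1% and 97.0% of the UMIs. Reg4, a secretory cell gene, was at 56.6, 98.2 and 3.77 CPM, and at 1.76 CPM in the KO without the secretory-marked cells. Reg4 was itself among the markers that chose those cells.

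Markers of secretory cells came from a handful of gated cells. In the control 1 cell of 44274 UMIs held 82.7% of all Paneth marker UMIs, 39.3% of goblet and 45.1% of enteroendocrine marker UMIs, and a second cell held 37.8% of the goblet UMIs. In the KO 1 cell held 45.1% of goblet and 37.7% of enteroendocrine UMIs, and in the rescue 1 cell held 51.7% of enteroendocrine and another 82.5% of tuft cell UMIs. In the median cell, Paneth markers made 0.0436%, 0.00418% and 0.0161% of UMIs and goblet markers 0.0148%, 0.0513% and 0.0131%. With the secretory-marked cells left out the goblet median of KO over control turned from -1.67 to 1.74, while the regenerative median went from 1.46 to 1.54, the ISC median from -0.96 to -0.97 and the MHC class II median of rescue over KO from 5.33 to 5.29. Those 3 lists kept their direction and size without these cells. The goblet markers were among the genes that chose these cells, so the goblet shift is no independent result.

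The same contrasts were set beside epithelial cells of the same gate without any Mki67 or Top2a UMI (256, 1094 and 340 cells). G2/M-gated cells held more mitotic transcripts, as the gate requires: the median log2 ratio to non-dividing cells was 4.72, 4.42 and 3.82 for G2/M regulators in control, KO and rescue. S phase genes, which the gate did not use, were higher by 2.76, 4.35 and 3.46, MYC targets by 2.04, 3.97 and 2.43, and ISC markers by 1.97, 2.89 and 2.05. Absorptive genes were lower in dividing cells, with medians of -3.51, -3.03 and -3.36. Against non-dividing cells of their own library 23.4%, 34.7% and 23.4% of measured genes were past 2-fold higher and 14.4%, 12.9% and 10.9% lower.

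Between KO and control more genes were past 2-fold in the non-dividing cells than in the G2/M-gated cells. Of 11383 genes measured there 898 (7.89%) were past 2-fold higher and 2448 (21.5%) lower in the KO. Against the KO, the non-dividing cells of the rescue had 1704 of 11289 genes (15.1%) higher and 903 (8.0%) lower, and between rescue and control 185 of 10626 (1.74%) higher and 948 (8.92%) lower. The ISC median was -2.01 against -0.96 in the G2/M-gated cells, the regenerative median 1.86 against 1.46, and the S phase median -1.18 against 0.25. MYC targets had a median of -1.57 in non-dividing cells and 0.33 in G2/M-gated cells, opposite in sign. YAP and TAZ targets had medians of 0.70 and -0.52, also opposite. Cell types were not matched in the non-dividing cells, where Paneth markers summed to 111197, 4242 and 15303 CPM in control, KO and rescue, and their part in these medians was not tested. The difference between the populations was not tested, since each rests on 1 library per genotype.

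**Figure D5:**
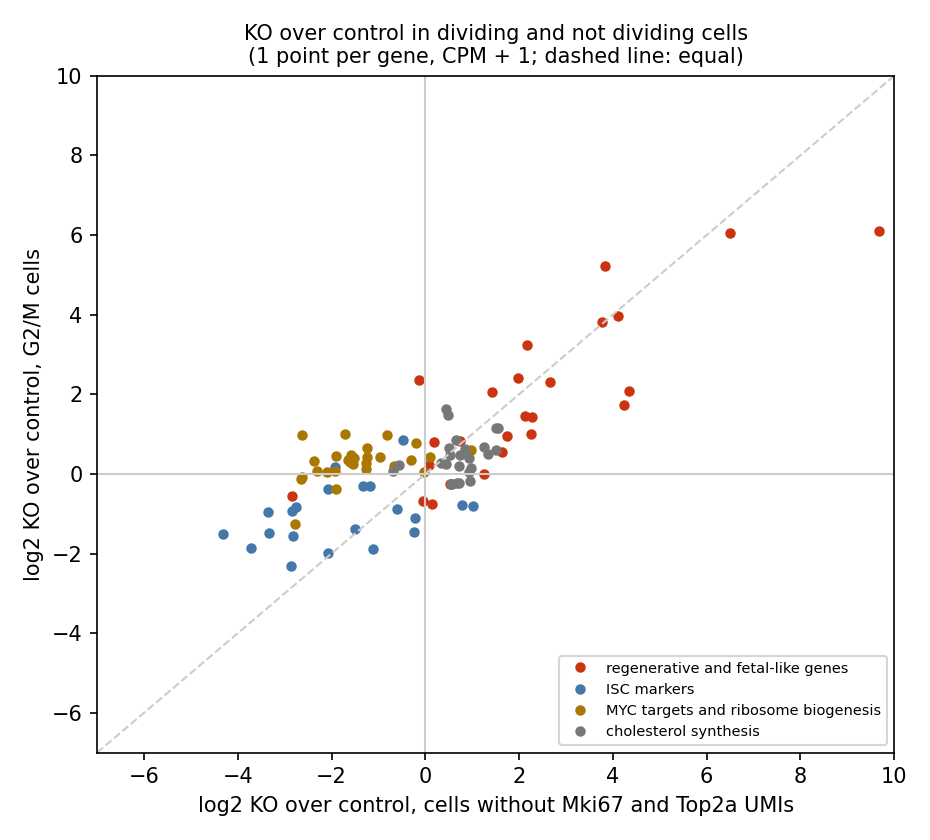
Log2 ratio of KO to control for single genes of 4 lists, in G2/M-gated cells (vertical axis) and in epithelial cells without Mki67 or Top2a UMIs (horizontal axis). MYC targets have medians of 0.33 vertically, with 24 of 28 genes above 0, and -1.57 horizontally, while the regenerative medians of 1.46 and 1.86 are above 0 on both axes. The vertical regenerative median equals the log2 ratio of the gate gene Clu, whose level is no result.

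The G2/M gate does not leave out S phase. In control, KO and rescue, 4 of 18, 37 of 79 and 49 of 135 gated cells held more S phase than G2/M regulator UMIs. Barcodes outside the gate with S phase transcripts were read as a second set of cells of these libraries. They were epithelial barcodes within the same Lgr5 and Clu limits, with at least 2 UMIs each of Pcna and Mcm5 and not G2/M-gated: 13, 36 and 26 cells with 548441, 2103337 and 1230409 UMIs in control, KO and rescue. Between KO and control 780 of 7607 measured genes (10.3%) were past 2-fold higher and 381 (5.01%) lower in the KO. Against the KO, 210 of 7669 genes (2.74%) were higher and 892 (11.6%) lower in the rescue, and between rescue and control 155 of 5797 (2.67%) were higher and 247 (4.26%) lower. In these cells S100a6 was at 52.9, 1868 and 18.7 CPM, Etv4 at 7.29, 34.7 and 0 CPM and Scd2 at 0, 226 and 73.1 CPM. Cd74 was at 89.3, 1.43 and 686 CPM and Clca3b at 842, 112 and 428 CPM. Here and in the G2/M-gated cells S100a6, Etv4 and Scd2 were highest in the KO, Cd74 was highest in the rescue and Clca3b was lowest in the KO. By summed CPM the KO was again highest in regenerative genes and lowest in ISC markers, and the rescue highest in MHC class II. Some lists changed order. G2/M regulators summed to 1006, 1522 and 925 CPM and spindle genes to 2060, 2854 and 2005 CPM, highest in the KO instead of lowest. S phase genes, which include Pcna and Mcm5, summed to 3032, 1896 and 2598 CPM, lowest in the KO instead of highest. These cells come from the same 3 libraries and add no replicate of a genotype.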

How the data were processed

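The authors deposited, for each of the 3 libraries, a matrix of UMI counts per gene and barcode, and these raw counts were used. Per the file headers, Cell Ranger 3.0.2 wrote the control and KO matrices and 3.1.0 wrote the rescue matrix, while version 1.3.0 is named per the submitters' processing notes. The sources used here name no genome build, and gene symbols are those of the files.

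Counts of the gated cells were summed per library and given as CPM, with exact Poisson intervals, and ratios had conditional exact binomial intervals (Python 3.11.15, scipy 1.17.1, scikit-learn 1.9.0). Intervals and floors cover counting error only. Shares had exact (Clopper-Pearson) 95% intervals. Log2 ratios used a pseudocount of 1 CPM. With 1 library per genotype no p-value was computed. Ratios were also checked on simulated counts, drawn independently for each gene as the intervals assume. That check does not cover the spread between cells. Doublets, scored against simulated pairs, were kept in and left out in an alternative.

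Named genes were, among genes with at least 50 CPM in 1 library, the 10 highest and 10 lowest in each comparison with the KO (5 for rescue with control). Named without that minimum were the 3 highest and 3 lowest of each list, and genes always named, such as Cdc42, Myc and the EGF ligands and receptors. Left out of the ranking were defensin, ribosomal, mitochondrial, immunoglobulin, Xist, Tsix, Y-linked and gate genes, and genes whose ratio interval included 1. One of the named genes is not reported here. The members, lists and alternatives were chosen with earlier results of these data known. Alternatives were other mitochondrial limits, gate thresholds, scalings, pseudocounts and count minimums, thinning before the gate, doublet removal and averaging over cells. Chosen after seeing the data were leaving out the top cell of each gene, leaving out secretory-marked cells, and dropping the mitochondrial limit with scaling to non-mitochondrial UMIs.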

Additional observations from a re-analysis of the deposited data

How the results depend on the processing

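No paired analysis was possible because each group has 1 library. Depth limits the control most, at 18 cells, and thinning to 10000 UMIs left 6. Over the 16 alternatives to the gate and scaling, the medians of the ISC, regenerative and MYC lists (KO over control) and of the MHC class I and II lists (rescue over KO) kept their sign. Under the stated gate the class II members were measured through their rescue UMIs alone. The cause of each shift below was not tested.

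The share of G2/M-gated cells in control, KO and rescue was 5.63%, 8.78% and 24.2% with 1 UMI of Mki67 and Top2a, 1.41%, 3.01% and 11.5% after thinning, and 6.02% (control) and 24.2% (rescue) without Lgr5 and Clu limits. The KO and rescue shares were 9.17% and 26.0% with a mitochondrial limit of 10% and 2.74% and 11.2% with none, and the KO share was 3.66% at 5 UMIs of each gate gene.

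Counts of genes past 2-fold moved by over 1.5 times as follows. For KO against control, higher counts were 1982 (mitochondrial limit of 10%), 385 (pseudocount of 5 CPM), 343 (at least 100 UMIs) and 1027 (without each gene's top cell), and lower counts were 1123, 310, 160 and 349 in the same order, with 148 after thinning, 1636 at 1 UMI or more and 999 with no mitochondrial limit and scaling to non-mitochondrial UMIs. For rescue against KO, higher counts were 301 (limit of 10%), 224 (thinned), 171 (pseudocount of 5) and 237 (100 UMIs), and lower counts were 246, 262 and 256 for the last 3. For rescue against control, higher counts were 1307 (limit of 10%), 792 (thinned), 117 (pseudocount of 5), 190 (100 UMIs) and 896 (without each gene's top cell), and lower counts were 919 (limit of 10%), 267 (pseudocount of 5), 213 (100 UMIs), 1134 (1 UMI), 305 (without each gene's top cell) and 984 (no mitochondrial limit, scaled).

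Log2 ratios past 1 in size that changed sign from KO to control were Apol10a (0.83) and Tgfa (-0.12) with a limit of 10%, Ascl2 (4.11) and Hbb-bs (-2.42) after thinning, Hbb-bs (-1.29) and Hba-a1 (-1.10) without the top cell, and without secretory-marked cells the goblet median (1.74), Ccl9 (2.46), Atoh1 (0.84), Hbb-bs (-1.34) and Hba-a1 (-0.86). From KO to rescue Hbb-bs was at 0.025 without the top cell and 0.15 without secretory-marked cells. From control to rescue those past 1 in size were Tgfa (-0.70, limit of 10%), Ascl2 (3.12, thinned) and, without secretory-marked cells, the goblet median (0.87), Ccl9 (0.91) and Atoh1 (1.51). The goblet markers, with Ccl9 and Atoh1, were among the genes that chose the secretory-marked cells. Of the recomputed genes with smaller ratios, 20 of 27 (KO against control), 19 of 36 (rescue against KO) and 21 of 34 (rescue against control) changed sign under 1 or more alternatives, Cdc42, Yap1, Wwtr1, Plk1, Ccnb1 and Egfr among them for KO against control.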
